A study of Mus musculus with 4 samples.

Results

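Fibroblasts without focal adhesion kinase (FAK) were compared with wild-type fibroblasts after both had been kept with endothelin-1 (ET-1), gene by gene, on 1 array for each side. The FAK knockout group held mouse embryonic fibroblasts from FAK -/- mice and the wild-type group held those from FAK +/+ mice. Per the labels' protocols, all cells were at passage 5, had grown in medium with 10% serum to 50% confluence, were starved of serum for 24 h, and then spent 24 h with or without ET-1. The labels do not say whether a culture came from 1 embryo or several. An untreated array of each genotype completes the series of 4 arrays, and that pair shares no array with the ET-1-treated pair. The comparison covers 12290 of the 18194 genes that the probe sets name, each read by its brightest probe set. These are the genes whose highest value over the 4 arrays lay above 8.90 on the log2 scale, the median of all values, which is called the level filter here. A difference is the knockout value minus the wild-type value on the log2 scale, so 1 unit is 2-fold. With 1 array a side it has no replicate check and no test.

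FAK is a tyrosine kinase at focal adhesions, the sites where integrins join the matrix outside the cell to the actin cytoskeleton inside it. It passes signals from integrins and growth factor receptors toward cell spreading, migration and survival. ET-1 is a short peptide that acts through G protein-coupled receptors and, in fibroblasts, is known for driving contraction and matrix production. Embryonic fibroblast cultures hold mesenchymal cells from many parts of the embryo.

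The ET-1-treated wild-type array stands apart in its control probe sets. For Gapdh the 3' end outread the 5' end by 3.79 (log2) there, against 0.85 to 0.90 elsewhere, and 18S ribosomal RNA read 9.29 by its 5' probe set there against 12.90 to 13.14. The Actb gap was also widest there, at 1.81 against 0.66 to 1.30. So were the gaps of the 4 bacterial transcripts dap, lys, phe and thr, which are added to the RNA as labelling controls, for example 6.23 against 4.66 to 4.86 for dap. The gaps of the dimmer Pcx (0.28) and Tfrc (2.49) lay just below and inside the range of the others (0.29 to 0.51 and 2.24 to 2.50). Every difference after ET-1 uses this array, and its part in them was not tested. Among 5239 genes with at least 2 probe sets past the level filter, the SD between probe sets of 1 gene had a median of 0.27 for the difference after ET-1 and 0.16 for the untreated one. Of the 661 such genes at 2-fold or more after ET-1, 592 (89.6%) had all these probe sets on the same side, against 479 of 507 (94.5%) untreated. FAK's own gene was not analysed here, so the genotype labels were not checked against it.

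After ET-1, 689 genes (5.61%) were higher in the knockout by 2-fold or more, and 803 (6.53%) were lower by that much. The untreated pair gave 587 (4.78%) and 564 (4.59%). Of the 689 higher genes, 427 (62.0%) were also at least 2-fold higher untreated, 228 had the same sign at less than 2-fold, 33 had the opposite sign at less than 2-fold and 1 the opposite sign at 2-fold or more. Of the 803 lower genes, 492 (61.3%) were at least 2-fold lower untreated, 302 had the same sign at less than 2-fold, 8 had the opposite sign at less than 2-fold and 1 the opposite sign at 2-fold or more. The dimmer of the 2 arrays was at or below the level filter for 219 of the higher and 284 of the lower genes, so their folds are uncertain. An additive limma fit of genotype and treatment over the 4 arrays tested the average of both genotype differences, and called 811 genes (6.6%) higher and 866 (7.05%) lower at an adjusted p under 0.05. It measures that average against the genotype by treatment term and not against a spread between cultures. Of the genes at 2-fold or more after ET-1, 501 of 689 and 612 of 803 passed limma in the same direction. The difference after ET-1 enters that average, so this overlap is partly built in by the choice of genes and is not independent support. The same holds for limma results of genes named below for their difference after ET-1.

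The genotypes lay much farther apart at the extremes after ET-1 than untreated. At 16-fold or more, 37 genes were higher and 61 lower after ET-1, against 1 and 15 untreated. To read this without choosing genes by the ET-1 arrays, genes were taken from the untreated pair. Of 41 genes that the untreated knockout held 8-fold or more above wild type, 33 were farther apart after ET-1, and the median moved from 3.31 to 4.35. Of 70 genes at least 8-fold lower, 61 were farther apart, and the median moved from -3.60 to -4.64. In both sets it was the dimmer genotype that read lower after ET-1. For the 41 higher genes the ET-1-treated wild type was below the untreated one in 38, with a median change of -0.92, while the knockout changed by a median of 0.07. For the 70 lower genes the ET-1-treated knockout was below the untreated one in 65, with a median change of -0.68, while wild type differed by 0.32. Both untreated values lay between the ET-1-treated values of the 2 genotypes for 19 of the 41 genes and 50 of the 70. A change with ET-1 and untreated samples that hold some RNA of the other genotype would both place them there, and with 1 array a group they cannot be told apart. "Farther apart after ET-1" therefore describes these arrays and not a response to ET-1. With the untreated wild type in place of the ET-1-treated one, 8 genes were 16-fold or more higher in the ET-1-treated knockout and 48 lower.

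**Figure D1:**
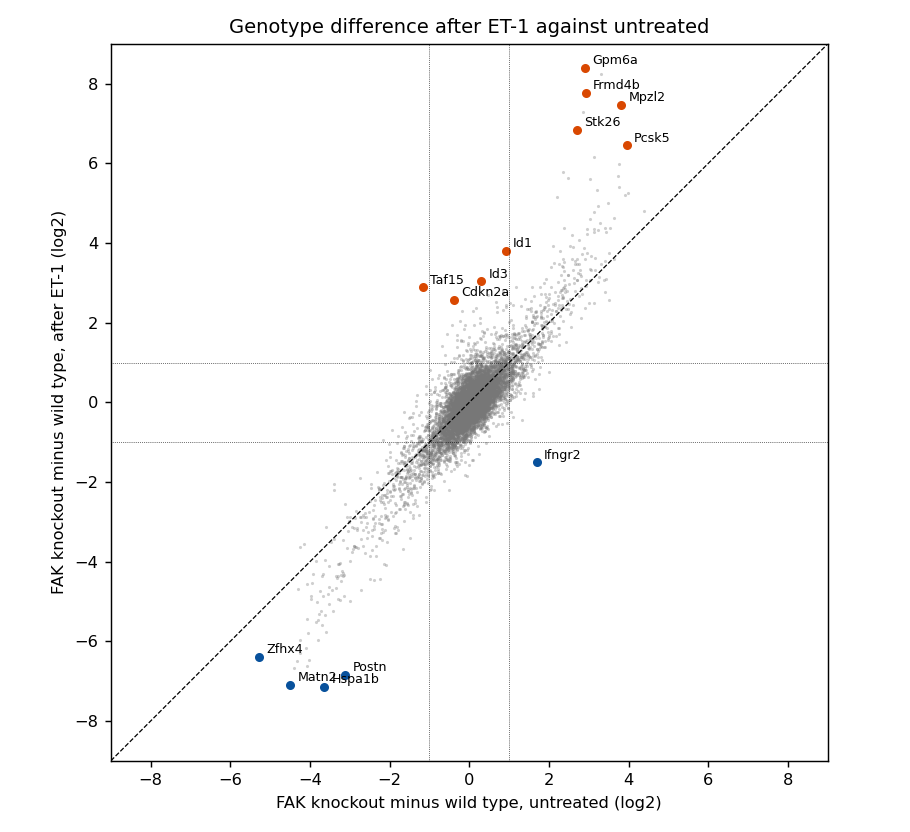
Each point is 1 of 12290 genes, with the genotype difference (knockout minus wild type) without ET-1 on the x axis and after ET-1 on the y axis, both log2; dotted lines mark 2-fold and the dashed line marks equal differences. The ends of the cloud run steeper than the dashed line, and Id1, Id3, Cdkn2a, Taf15 and Ifngr2 lie off it.

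The gene farthest above wild type after ET-1 was Gpm6a, a neuronal membrane glycoprotein that is also abundant in mesothelium. It read 11.41 in untreated and 5.95 in ET-1-treated wild type, and 14.32 and 14.35 in the untreated and ET-1-treated knockout. The difference was 8.40 after ET-1 and 2.91 untreated, and its second probe set gave 7.60. Bex1, a small adaptor protein of neural tissue, read 10.54 and 5.74 in wild type and 13.85 and 13.99 in the knockout, in the same order, and has 1 probe set. Both genes show the same layout, with both knockout arrays level, the untreated wild type between, and the ET-1-treated wild type far down.

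Frmd4b, a scaffold protein of epithelial polarity, was higher by 7.77, the adhesion protein Mpzl2 by 7.48, the imprinted zinc-finger factor Peg3 by 7.29, the matrix protein Efemp1 by 7.06 and the kinase Stk26 by 6.85. The proprotein convertase Pcsk5 was higher by 6.45, the peptide hormone Apela by 6.17, the fatty acid desaturase relative Fads6 by 63.8-fold, the uroplakin Upk3b by 5.78 and the myosin chaperone Unc45b by 5.70. In the knockout these 12 genes read 11.98 or more in both arrays. ET-1-treated wild type gave a value under the level filter for each, with Mpzl2 the dimmest at 5.36 and Upk3b the brightest at 8.88. By limma Pcsk5 (adjusted p = 0.0182), Fads6 (0.0164), Unc45b (0.0139), Mpzl2 (0.0339) and Apela (0.0349) passed, and Gpm6a (0.0803), Bex1 (0.0615), Frmd4b (0.0694), Peg3 (0.0648), Efemp1 (0.0556), Stk26 (0.0641) and Upk3b (0.0607) did not.

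The gene farthest below wild type was Hspa1b, a stress-inducible 70 kDa-class heat shock protein. It read 13.54 and 13.69 in untreated and ET-1-treated wild type and 9.90 and 6.55 in the knockout. The difference was -7.13 after ET-1, its 3 probe sets gave -7.13 to -6.86, and untreated it was -3.64. Hspa1a is a near-identical copy, so the probe sets may read both. Periostin (Postn), a matricellular protein of fibroblasts, read 14.09 and 14.55 in wild type and 10.98 and 7.70 in the knockout, a difference of -6.85 after ET-1 and -3.11 untreated. Wild type was high and level in both states for these genes, and the ET-1-treated knockout was the lowest array.

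Matn2, a matrix protein of the matrilin family, differed by -7.09, the protein kinase A regulatory subunit Prkar2b by -6.68, the fibroblast surface protein Thy1 by -6.62 and the chemokine Cxcl5 by -6.50. Cth, the enzyme that makes cysteine from cystathionine, differed by -6.47, the homeobox factor Zfhx4 by -6.39 and the small proteoglycan Aspn by -6.29. The glycosyltransferase B3galnt1 differed by -6.18, the growth factor Fgf7 by -5.97 and the myosin light chain Myl9 by -5.96. All 12 lowest genes passed limma, from an adjusted p of 0.00568 for Zfhx4 to 0.0478 for Postn. The ET-1-treated knockout read at most 7.70 for each of the 12, below the level filter.

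**Figure D2:**
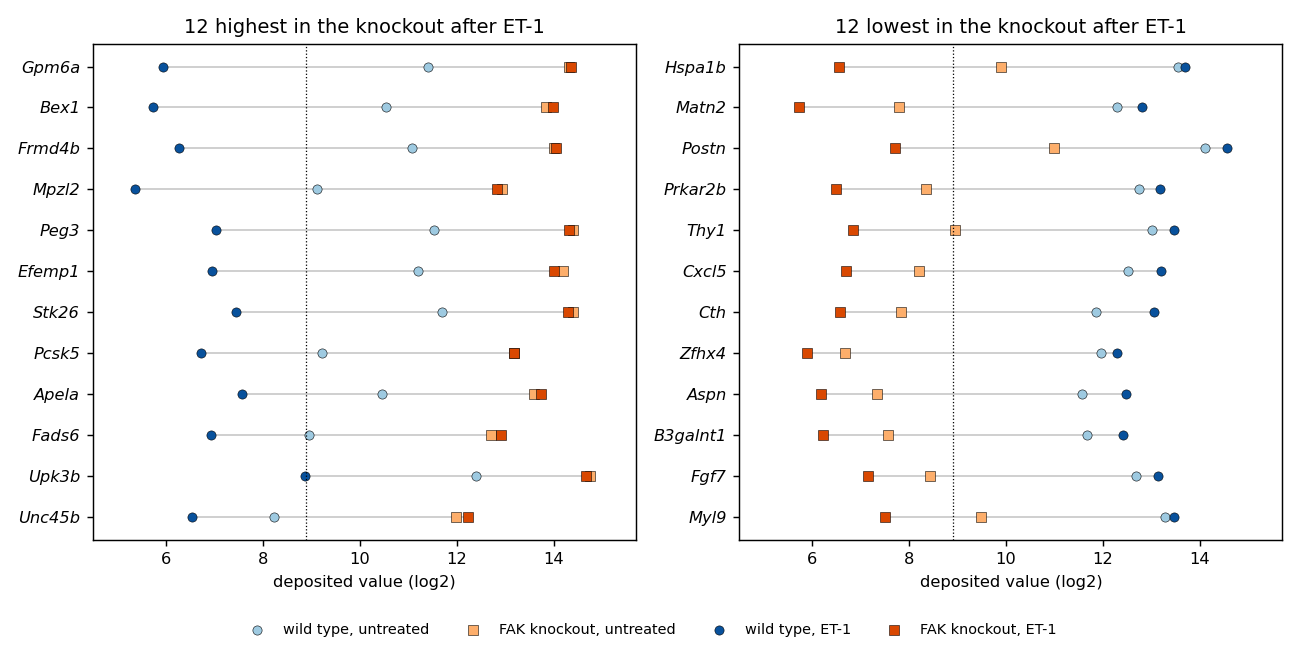
Deposited log2 values of the 12 genes highest and the 12 lowest in the knockout after ET-1; circles are wild type, squares the knockout, pale untreated and dark ET-1-treated, and the dotted line is the level filter. In the left panel the dark circle is lowest in every row, and in the right panel the dark square is, each with the untreated array of the same genotype above it.

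Several probe sets per gene were read because of the 3' to 5' gap. Frmd4b has 5 past the level filter, with differences of 7.77, 7.45, 4.82, 4.20 and 1.10 after ET-1. Mpzl2 gave 7.48, 6.68 and 1.44, and Peg3 gave 7.29, 4.43 and 3.77, with a further 2 below the filter at 0.05 and -0.02. Zfhx4 gave -6.39 and -1.70, and Fgf7 gave -5.97 and -1.32. Among the 12 highest and 12 lowest genes, each one with more than 1 probe set past the filter had the same sign in all of them, but not the same size. Averaging every probe set of a gene gave 5.07 for Frmd4b, 3.10 for Peg3, 2.43 for Pcsk5, -4.04 for Zfhx4 and -3.64 for Fgf7. Among genes with at least 2 probe sets past the filter, ranked by the probe set that differed least, the farthest apart were Gpm6a (7.60), Upk3b (5.64), Pcsk5 (4.72), Stk26 (4.70) and the glucose transporter Slc2a3 (3.98) above wild type. Below wild type they were Hspa1b (-6.86), the matricellular protein Ccn3 (-5.51), Aspn (-5.44), the lymphatic growth factor Vegfc (-5.02) and Matn2 (-3.75).

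Several genes named in the following paragraphs fall below 2-fold by another reading of their probe sets. By the mean of all of them this holds for Sema6d (0.62), Tln2 (-0.80), Bcar1 (-0.65), Adcy7 (-0.83), Rgs2 (-0.84), Itga1 (-0.81), Dgkh (-0.92), Trpc1 (-0.67), Ntn4 (-0.77), Csrp1 (0.69), Lama5 (0.95), Macrod2 (-0.98) and Gusb (-0.92). By the second brightest probe set it holds for Hoxa9 (-0.16), Col12a1 (-0.47), Igfbp7 (-0.63), Eln (0.31), Pfkp (0.45), Fst (-0.96), Adm (-0.98), Mylk (-0.97), Sema6d (0.03), Bcar1 (-0.19) and Tln2 (-0.65). Csf1r falls below 2-fold by both readings (mean 0.57, second brightest 0.56), and Map2 by the mean (-0.85). The counts by list rest on the brightest probe set. Each is to be read against the 5.61% of all genes that were at least 2-fold higher and the 6.53% that were lower.

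**Figure D3:**
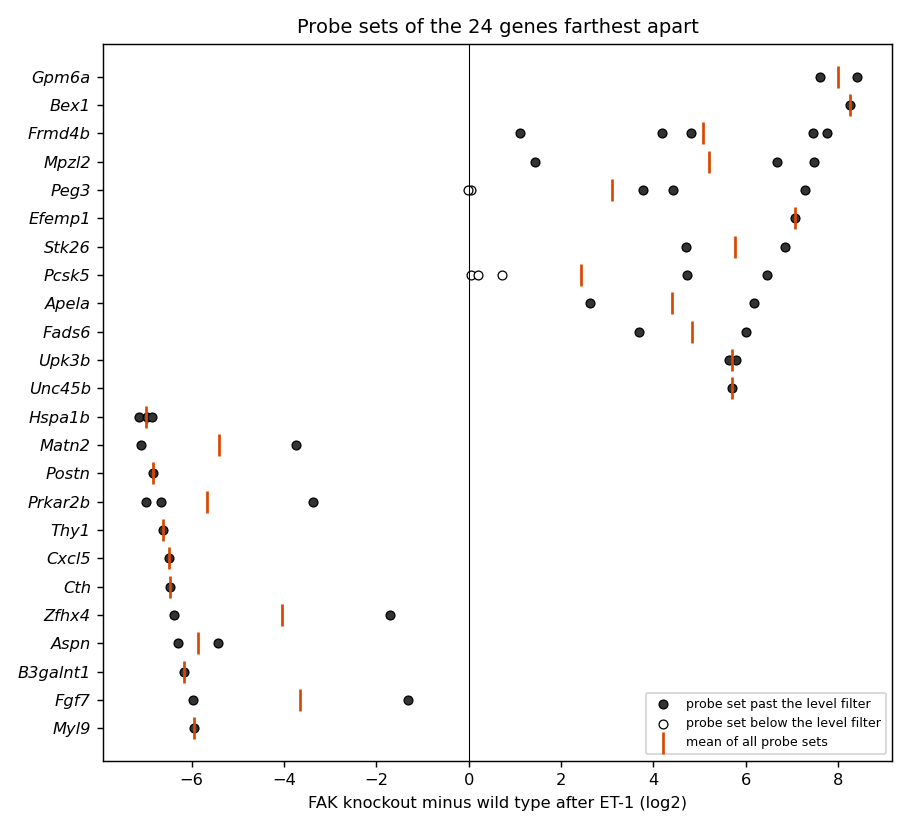
Knockout minus wild-type difference after ET-1 (log2) for each probe set of the 24 genes farthest apart; filled points passed the level filter, open points did not, and the bar is the mean of all probe sets. Filled points lie on 1 side of 0 for every gene, and spread by several log2 units for Frmd4b, Mpzl2, Peg3, Zfhx4 and Fgf7.

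Mesothelial markers were the list with the largest share of members higher in the knockout. The lists were chosen with earlier results of these data known, so this rank may be partly set by that choice. Mesothelium is the sheet of cells that lines the body cavities and carries both keratins and mesenchymal filaments. Of 18 markers measured, 14 were at least 2-fold higher after ET-1 and 1 was lower, with a median of 3.39 against -0.03 over all genes. By limma 13 of the 18 were higher and 1 lower. Untreated, 16 of the 18 were at least 2-fold higher and 1 lower, with a median of 2.52. Wt1, a transcription factor of mesothelium and gonad, read 10.20 and 8.47 in untreated and ET-1-treated wild type and 13.43 and 13.41 in the knockout, a difference of 4.94 (limma 4.09 ± 0.45 SE, adjusted p = 0.0152). Both knockout arrays were above both wild-type arrays. The surface protein Lrrn4 differed by 5.20, the uroplakin Upk1b by 3.61, the transcription factor Bnc1 by 3.60, the mucin Muc16 by 3.19 and the membrane protein Nkain4 by 2.80. Mesothelin (Msln), named after the tissue, read 12.05 in both wild-type arrays and 13.08 and 12.96 in the knockout, a difference of 0.92 that stayed under 2-fold. Krt19 was the 1 lower marker, at -3.41. Efemp1, Igfbp3, Krt18 and Krt19 also stand in other lists. The number of these markers above the level filter was 17 of 19 in each knockout array, 16 in untreated wild type and 9 in ET-1-treated wild type, and their summed log2 level ran from 173 in ET-1-treated wild type to 237 in the untreated knockout. In bulk RNA more cells of a type and more RNA per cell cannot be told apart.

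Keratins, the intermediate filaments of epithelia, and desmosome proteins were split. Of 15 measured, 6 were at least 2-fold higher after ET-1 and 2 lower, with a median of 0.76. Krt18 read 10.55 and 7.48 in untreated and ET-1-treated wild type and 13.58 and 13.10 in the knockout, a difference of 5.62 (limma 4.32 ± 0.66 SE, adjusted p = 0.03). Krt14 was higher by 5.17 (adjusted p = 0.0568 by limma), Krt7 by 3.17 and desmoplakin (Dsp), which anchors keratins to desmosomes, by 2.40. Krt8, the usual partner of Krt18, was higher by 0.86. The defining epithelial gene Epcam read 11.69 to 12.08 in the 4 arrays and differed by -0.39. E-cadherin (Cdh1) read 5.74 to 5.95, below the level filter. Of 15 epithelial markers on the array, 7 were above the filter in ET-1-treated wild type and 10 in each other array. Of the other cell types checked, 3 of 11 endothelial, 4 to 5 of 12 macrophage and leukocyte and 3 to 4 of 11 neural markers were above the filter in an array. Their summed log2 levels ran from 89.5 to 90.1, 98.8 to 99.7 and 90.3 to 94.7. The defining genes Pecam1 (7.68 to 7.76), Cdh5 (7.44 to 7.53) and Ptprc (6.58 to 6.70) were below it in every array. Other members were above it throughout, among them the endothelial receptor Kdr (10.14 to 10.63) and the leukocyte membrane protein Laptm5 (10.87 to 11.34). Csf1r, the receptor for macrophage colony-stimulating factor, read 10.24 and 10.04 in untreated and ET-1-treated wild type and 11.36 and 11.10 in the knockout, a difference of 1.06 (adjusted p = 0.0146 by limma). The neuronal gene Map2 differed by -1.87 (adjusted p = 0.0061 by limma). The part of other cell types in the results was not tested.

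Fibroblast markers, the check on the labelled cell type, were mostly lower in the knockout. Of 16 measured, 11 were at least 2-fold lower after ET-1 and 1 was higher, with a median of -1.85 (-1.59 untreated). Thy1 read 13.01 and 13.46 in untreated and ET-1-treated wild type and 8.95 and 6.85 in the knockout, so it was below the level filter in the ET-1-treated knockout. The receptor Pdgfrb differed by -4.30, the matrix protein Dpt by -3.59 and S100a4 by -3.41. Other defining genes stayed high in both genotypes. Vimentin (Vim), the mesenchymal filament, read 14.81 in wild type and 14.16 in the knockout after ET-1, and the fibrillar collagen Col3a1 read 14.69 and 14.54. Cdh11, the cadherin of mesenchyme, differed by 0.11, and the proteoglycan Dcn was higher in the knockout by 1.87. Of the 18 markers on the array 16 were above the level filter in ET-1-treated wild type and 11 in the ET-1-treated knockout.

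The transcription factors that give mesenchyme its type and place went both ways. Over all genes the 2-fold shares were 5.61% higher and 6.53% lower. Of 40 mesenchymal and limb factors, 13 were at least 2-fold lower after ET-1 and 6 higher, and limma called 15 and 6. Prrx1, a factor of limb and connective tissue mesenchyme, differed by -5.06 with 5 of 5 probe sets past the filter on that side (to -0.42), Sox11 by -4.63 with 6 of 6, and the limb factor Shox2 by -4.35. On the other side were Tcf21, a factor of visceral and cardiac mesenchyme, at 5.34, Mycn at 4.39 and the cardiac factor Tbx20 at 4.35. The second brightest probe set of Mycn gave -0.075. Twist1 differed by 0.07, while its relative Twist2 differed by -4.04. Hox genes, which record position along the body and limb, had 9 of 23 members at least 2-fold lower and 0 higher. Hoxd10 differed by -4.57, Hoxa9 by -4.35, Hoxc8 by -3.42 and Hoxc10 by -2.87. The untreated differences of these 4 were -4.08, -3.17, -3.39 and -3.06. Among 17 imprinted growth genes 3 were higher and 4 lower, led by Peg3 (7.29), the growth inhibitor Grb10 (-5.23) and the noncoding RNA Meg3 (-3.40). All 11 Meg3 probe sets were lower, but they ran from -5.69 to -0.08, with a mean of -1.49.

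Contractile and SRF target genes, taken as 1 list and called contractile genes here, were 2-fold lower more often than 2-fold higher. Actin and myosin with calponins and tropomyosins form stress fibres, and many of these genes are textbook targets of serum response factor (SRF). Of 31 measured, 11 were at least 2-fold lower after ET-1 (35.5%, against 6.53% of all genes), 2 were higher and the others lay within 2-fold, with a median of -0.49 (-0.39 untreated). Myl9 read 13.29 and 13.47 in untreated and ET-1-treated wild type and 9.48 and 7.51 in the knockout. The smooth muscle actin Actg2 read 12.96 and 13.30 against 9.71 and 8.33, a difference of -4.97 (limma -4.11 ± 0.45 SE, adjusted p = 0.0147). Calponin Cnn1 differed by -3.03, Cnn2 by -2.18 and the myosin kinase Mylk by -2.04. Acta1 (-1.51) and the nonmuscle myosin Myh9 (-1.50) differed by -0.09 and -0.30 untreated, and the mean of all 5 probe sets of Myh9 gave -0.24. Smoothelin (Smtn) was higher by 1.81 and Csrp1 by 1.11. Acta2, the actin that marks myofibroblasts, differed by -0.49 and read 14.57 to 15.06, near the array maxima.

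To show what the promoters of such genes hold, the stretch upstream of the start was searched for the SRF-binding CArG box, a motif that reads as itself on both strands. RefSeq windows of GRCm38.p6 were available for 28 of the 31 contractile genes. Of these, 9 held a CArG box within 250 bases of the start, against 439 of 27025 genes (1.62%) with a window. The list was drawn up to include SRF targets, Srf itself among its members. Its larger share was therefore built in by that choice and is not a result. Of the 5 contractile genes at least 4-fold lower after ET-1, 2 hold a box, Cnn1 and Mylk hold none in this window, and Actg2 was not searched. The 2 that hold one are shown 5' to 3' on the coding strand, with the box in capitals. The Myl9 stretch lies at chr2:156775243-156775372 on the plus strand and its box starts 161 bases before the start, and the Cnn2 stretch lies at chr10:79988484-79988599 on the plus strand with its box 56 bases before the start.
Myl9: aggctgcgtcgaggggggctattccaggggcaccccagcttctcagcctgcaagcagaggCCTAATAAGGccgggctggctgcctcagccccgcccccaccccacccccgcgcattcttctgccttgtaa
Cnn2: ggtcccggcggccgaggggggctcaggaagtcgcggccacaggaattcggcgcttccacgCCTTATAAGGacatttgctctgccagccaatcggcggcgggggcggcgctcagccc
The other 7 genes with a box, Acta1, Actc1, Myl6, Srf, Fhl1, Fhl2 and Ldb3, differed by -1.54 to 0.00 after ET-1. Srf itself differed by -0.14. A box in these letters does not show binding, and no binding was measured.

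Of 35 focal adhesion genes, 6 were at least 2-fold lower after ET-1 (17.1%, against 6.53% of all genes) and 1 higher (2.86%, against 5.61%), with a median of -0.23. The 1 higher gene was Ptk2b, which encodes Pyk2, the other kinase of the FAK family. It read 8.97 and 8.80 in untreated and ET-1-treated wild type and 10.78 and 11.08 in the knockout, a difference of 2.28. Its second probe set gave 0.01, and the mean of both was 1.15. The adaptor Tgfb1i1 (Hic-5) differed by -3.20, the parvin Parvb by -2.09, talin-2 (Tln2) by -1.70 and the FAK substrate Bcar1 (p130Cas) by -1.11. Of 14 integrin subunits, 1 was higher, Itgb8 at 3.03, and 1 lower, the collagen-binding Itga1 at -1.56 with -0.26 untreated. Each is 7.14% of the list, near the shares of all genes. Of 24 CCN and YAP-responsive genes 7 were lower and 0 higher. Ccn3 differed by -5.51, Ankrd1 by -2.08, Ccn4 by -1.84, Ccn2 by -1.50 and Ccn1 by -1.19, and every probe set of these genes past the filter was lower.

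Collagens, the main fibres of the matrix, had 9 of 23 chains at least 2-fold lower after ET-1 (39.1%, against 6.53% of all genes) and 2 higher, with a median of -0.54. Col8a1 differed by -3.70, the fibril-associated Col12a1 by -3.59, Col11a1 by -3.27, the microfibril chain Col6a3 by -3.14 and Col1a1, a chain of type I collagen, by -2.38. Col5a2 was higher by 3.48 and the basement membrane chain Col4a6 by 1.80. Of 12 matricellular and adhesive glycoproteins 7 were lower and 1 higher, with both Matn2 and Postn far down, followed by tenascin-C (Tnc, -2.87) and thrombospondin-2 (Thbs2, -2.83). Fibronectin (Fn1) differed by -0.02 by its brightest probe set, and its second gave 0.75 after ET-1 and -0.68 untreated. Among enzymes that process and crosslink collagen, 5 of 19 were lower. The procollagen enhancers Pcolce2 and Pcolce differed by -4.68 and -2.05 and lysyl oxidase (Lox) by -1.50. Transglutaminase Tgm2 was higher by 1.49, and its 6 probe sets were all higher, from 0.98 to 3.31. In the metalloproteinase list 9 of 23 were lower and 1 higher, among them Adamts5 (-2.54) and Timp1 (-1.65). Elastic fibre genes were split, 3 higher and 5 lower of 14, with Efemp1 and elastin (Eln, 2.50) on one side and Ltbp1 (-4.32) on the other. Of 14 basement membrane genes 2 were higher, Fras1 at 2.91 and the laminin Lama5 at 1.54, and Nid1 was lower at -1.49. Untreated, 4 of the 14 were higher and 1 lower.

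**Figure D4:**
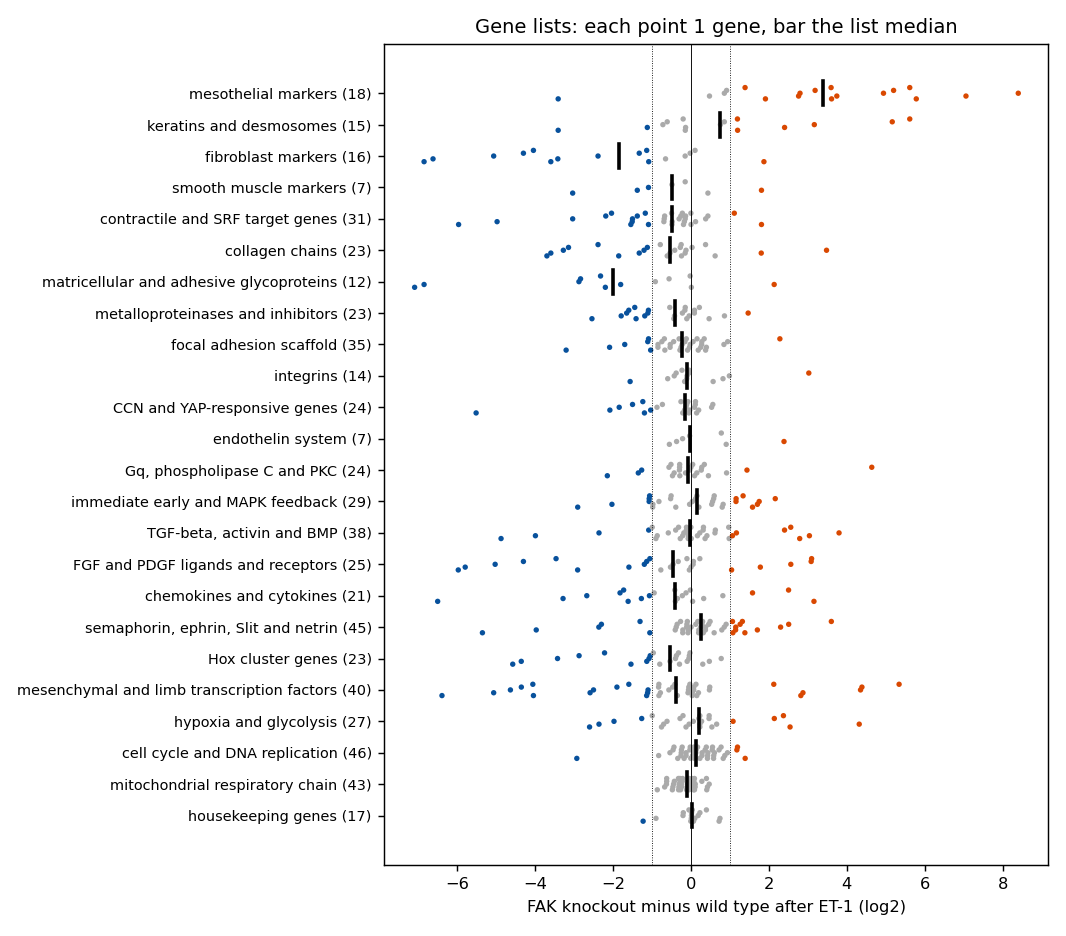
Knockout minus wild-type difference after ET-1 (log2) for each gene of 24 lists, with the number of genes measured in brackets; orange points are at least 2-fold higher, blue at least 2-fold lower, and the bar is the list median. The bar lies far to the right for mesothelial markers (3.39), far to the left for fibroblast markers (-1.85) and matricellular glycoproteins, and near 0 for respiratory chain and housekeeping genes.

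Growth factor genes included large differences in both directions. Their counts are to be read against 5.61% higher and 6.53% lower among all genes. Of 25 FGF, PDGF, VEGF and EGF family genes, 10 were at least 2-fold lower after ET-1 and 5 higher, and limma called 10 and 5. The lower ones include the ligands Pdgfd (-5.79), Vegfc (-5.02 with 3 of 3 probe sets), Vegfd (-3.46) and Nrg1 (-2.91), and Pdgfrb. The higher ones include Fgf5 (3.10), Fgf9 (3.09), epiregulin (Ereg, 2.56) and Fgf18 (1.78). For Fgf5, Fgf9, Ereg and Fgf18 the untreated difference was larger, at 3.43, 3.38, 3.50 and 2.05. In the IGF list 3 of 19 were higher, the binding proteins Igfbp3 (3.74), Igfbp4 (2.29) and Igfbp6 (2.27), and 4 were lower, with Igfbp7 at -2.90. All 6 Igfbp4 probe sets were higher, but they ran from 0.29 to 4.25. Of 21 chemokines and cytokines 8 were lower and 3 higher. Tslp, a cytokine of epithelia and fibroblasts, differed by -3.28 and Ccl9 by -2.67, while the interleukins Il18 (3.16) and Il33 (2.51) were higher. Of 10 prostanoid genes 2 were higher and 3 lower, with prostacyclin synthase Ptgis at 5.62 and cyclooxygenase-2 (Ptgs2) at -5.33.

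Guidance and Wnt genes completed the secreted and surface factors. Among all genes 5.61% were at least 2-fold higher and 6.53% lower. Of 45 semaphorin, ephrin, Slit and netrin genes, 11 were at least 2-fold higher after ET-1 and 6 lower, and limma called 13 and 5. Slit2, a repellent ligand, differed by -5.35 and Sema5a by -3.97, while Sema3d was higher by 3.60 and Sema6d by 2.51. The receptor Nrp1 differed by -2.30 with 4 of 4 probe sets. Ntn4, a laminin-related netrin, differed by -1.31 after ET-1 and -0.03 untreated. In the Wnt list 3 of 38 were higher (7.89%, near the share of all genes) and 6 lower (15.8%), against 7 and 3 untreated. The Wnt amplifiers Rspo1 (2.65) and Rspo3 (-2.42) went opposite ways. Cadherins had 1 of 16 higher (6.25%, near the share of all genes), Celsr1 at 3.32. A further 3 (18.75%) were lower, led by Pcdh19 at -3.75.

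The endothelin system and the pathways its receptors use were read against the 12.1% of all genes that were 2-fold apart either way. Of 7 endothelin genes 1 was at least 2-fold higher after ET-1, the ligand Edn2, which read 8.41 and 8.21 in untreated and ET-1-treated wild type and 10.77 and 10.60 in the knockout. Edn1, which encodes ET-1, differed by 0.91 (1.16 untreated). Untreated, 3 of the 7 were at least 2-fold higher. The receptor Ednrb read 9.29 to 9.33 in the 4 arrays, near the level filter, and its other probe sets lay below it. Its difference of -0.03 therefore says little. The receptor Ednra was not among the genes measured. Of 24 genes for Gq proteins, phospholipase C and protein kinase C, 2 were higher and 3 lower. The phospholipase Plce1 read 8.68 and 8.26 in wild type and 12.32 and 12.90 in the knockout, a difference of 4.64 (limma 4.14 ± 0.27 SE, adjusted p = 0.00703). The diacylglycerol kinase Dgkh differed by -2.14, with probe sets from -2.14 to -0.26. The kinase Prkd1 (-1.35) and the channel Trpc1 (-1.26) were within 1.5-fold untreated, at -0.21 and -0.20. RGS proteins, which shorten G protein signals, had 2 of 11 lower, Rgs20 at -2.83 and Rgs2 at -1.61, and 0 higher. In the protein kinase A list Prkar2b, the phosphodiesterase Pde4d (-2.75) and the cyclase Adcy7 (-1.81) were lower and the anchor Akap2 was higher (1.65), of 25.

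Some BMP-linked genes, picked out after their values were seen, were less than 2-fold apart untreated and 5.29-fold or more apart after ET-1. The Id genes encode inhibitors of helix-loop-helix transcription factors and are textbook targets of BMP signalling. Id1 read 10.07 in untreated and 8.53 in ET-1-treated wild type, and 10.99 and 12.34 in the untreated and ET-1-treated knockout. Its difference was 3.80 after ET-1 and 0.92 untreated. Id3 read 11.35 and 9.99 in wild type and 11.65 and 13.04 in the knockout, a difference of 3.04 after ET-1 and 0.31 untreated. Id2 differed by 2.79 and 0.84, with a mean over its 3 probe sets of 1.41. The inhibitory Smad gene Smad6, also a BMP target, differed by 2.40 and 0.93, whereas Smad7 differed by 0.23 and -0.50, Id4 by 0.97 and -0.61 and Bambi by -0.07 and -0.82. For Id1, Id2, Id3 and Smad6 the ET-1-treated wild type was the lowest and the ET-1-treated knockout the highest of the 4 arrays. None of the 4 passed limma, with adjusted p of 0.127, 0.107, 0.214 and 0.077, since the fit counts such a change against the difference. Id1, Id3 and Smad6 have 1 probe set each. Of the BMP antagonists, Grem1 differed by -4.87 and follistatin (Fst) by -3.99, and the ligand Bmp6 by 2.56. Of all 38 genes of the TGF-beta, activin and BMP list 7 were at least 2-fold higher after ET-1 and 4 lower, against 2 and 4 untreated.

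Immediate early genes and feedback inhibitors of MAP kinases, which follow growth factor signals within minutes to hours, had 7 of 29 at least 2-fold higher after ET-1 and 5 lower, against 2 and 2 untreated. Dusp4, a MAP kinase phosphatase, read 12.30 and 11.82 in untreated and ET-1-treated wild type and 12.67 and 13.58 in the knockout, a difference of 1.75 against 0.38 untreated. Dusp6 differed by 1.34 (0.42 untreated), Ier2 by 1.58 (0.29), Fos by 1.16 (0.66) and Spry4 by 1.71 (0.64), with 0.58 for the mean of all 4 Spry4 probe sets. Fosl1 (-2.90) and Myc (-2.03) were lower and Klf4 (2.16) was higher, each with the same sign untreated. Egr1 differed by 0.12.

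Among genes at 4-fold or more after ET-1, 9 higher and 1 lower had an untreated difference within 1.5-fold. Beside Id3 the farthest were Sp3 (2.69), Cdkn2a (2.58), Raly (2.37), Snd1 (2.30) and Vapb (2.29), and the 1 lower was Macrod2 (-2.20). Cdkn2a, the locus of the p16 and p19 growth inhibitors, read 11.26 and 8.76 in untreated and ET-1-treated wild type and 10.89 and 11.34 in the knockout. For Sp3, Cdkn2a, Raly, Snd1 and Vapb the ET-1-treated wild type was the lowest array. Averaged over their probe sets, Raly differed by 1.20, Snd1 by 0.81 and Vapb by 0.79, and the 3 Vapb probe sets ran from 0.02 to 2.29. Taf15 was 2-fold or more apart in both states with opposite signs, at 2.89 after ET-1 and -1.16 untreated. So was the interferon receptor chain Ifngr2, at -1.51 and 1.69. The second probe set kept its sign in both, at 0.59 and 0.42 for Taf15 and 0.04 and 0.11 for Ifngr2.

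**Figure D5:**
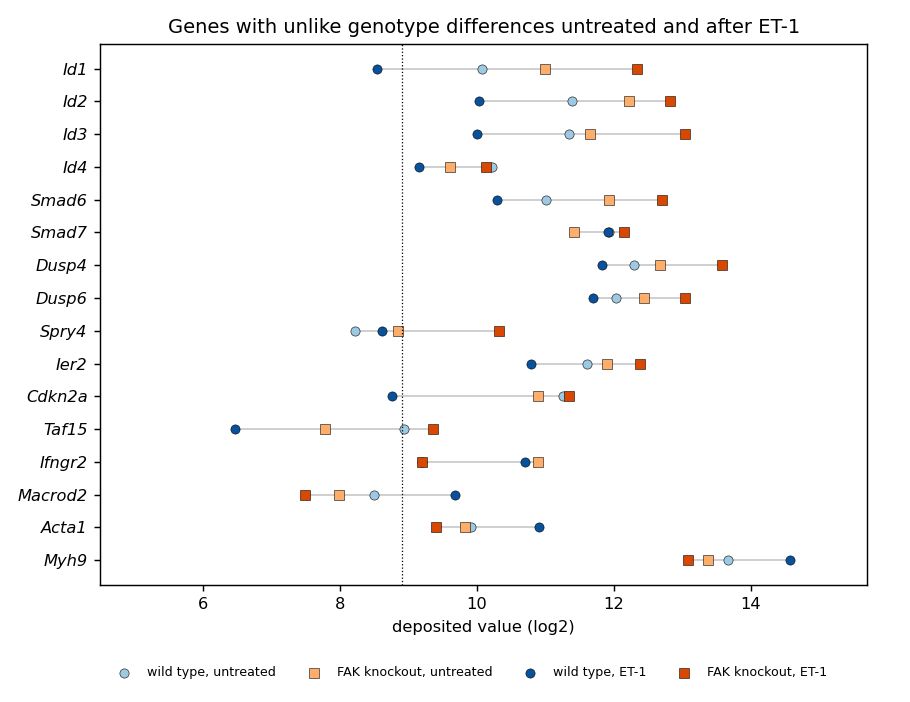
Deposited log2 values in the 4 arrays for members of the BMP, MAP kinase and contractile lists and for genes whose untreated difference was small or opposite; circles are wild type, squares the knockout, pale untreated and dark ET-1-treated, and the dotted line is the level filter. For Id1, Id2, Id3, Smad6, Dusp4, Dusp6 and Ier2 the dark circle is leftmost and the dark square rightmost, and for Cdkn2a the dark circle alone lies apart.

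For metabolic and stress genes the counts are to be read against 5.61% higher and 6.53% lower among all genes, and several lists lay near those shares, such as ATF4-regulated genes (6.67% each way) and cell cycle genes (6.52% and 2.17%). Of 27 hypoxia and glycolysis genes 5 were at least 2-fold higher after ET-1 and 4 lower. Slc2a3 was higher by 4.32, the carbonic anhydrase Car9 by 2.54, Pfkp by 2.37 and Aldoc by 2.14, and adrenomedullin (Adm, -2.60), hexokinase Hk1 (-2.36) and Bnip3 (-1.97) were lower. In the adipogenic and lipid list the apolipoprotein Apoe (4.37) and the cholesterol exporter Abca1 (2.71) were higher, while the fatty acid carrier Fabp4 (-4.44) and Pparg (-1.79) were lower, of 24. In the list of ATF4-regulated genes 2 of 30 were higher, led by Ddit4 at 2.91, and 2 were lower, led by Cth. Untreated, 8 of the 30 were at least 2-fold higher and 1 lower. Oxidant defence genes had 3 of 22 higher and 2 lower, and endoplasmic reticulum chaperones 2 and 1 of 22. Of 24 p53 targets and Cdkn2 genes 3 were higher and 4 lower, among them the death gene Pmaip1 (2.46) and Zmat3 (-1.63), and Cdkn1a differed by 0.29. Interferon response genes had 0 of 17 higher and 2 lower, with the RNA sensor Ifih1 at -1.97. Cell cycle genes had 3 of 46 higher and 1 lower, the inhibitor Cdkn1c at -2.93, with a median of 0.13. All 43 respiratory chain subunits were within 2-fold, from -0.86 for Ndufa10 to 0.47 for Sdhd. Of 17 housekeeping genes 1 was 2-fold apart, Gusb at -1.23, and the median was 0.02.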

How the data were processed

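Total RNA from the 4 cultures (100 ng each, labelled in 2 cycles per the labels' protocols) was hybridised to Affymetrix whole-genome mouse arrays, 1 per group. The deposited values are log2 signals, 1 for each probe set. The submitters' processing notes name RMA, and its version was not given in the sources used here. The table holds 45101 probe sets and 0 columns of other samples. Two-cycle labelling is primed at the 3' end, so 5' probe sets may read low.

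The platform's annotation paired 34958 probe sets with 1 gene, 932 with several (not used) and left 9211 unlisted. Of the first, 34754 matched RefSeq (GRCm38.p6) by Entrez identifier. The brightest probe set stood for a gene. The members, the 45 gene lists and the naming rule were chosen with earlier results of these data known. Named are the 12 highest and 12 lowest genes, the 10 of each kind by their least differing bright probe set, 6 of each kind near level untreated, genes of opposite sign, and up to 5 members per list, with further members chosen after their values were seen. Predicted and clone names were passed over.

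Differences and counts were computed in Python 3.11.15 with pandas 2.3.3. limma 3.58.1 (R 4.3.3; lmFit, eBayes with an intensity trend, Benjamini-Hochberg over 12290 genes) fitted genotype plus treatment, with 1 residual degree of freedom. On simulated data over 12290 genes it recovered 76% of 100 genes changed by 3 log2 units and 0% of 100 changed by 1. The simulation changed far fewer genes than limma called in the data, and shuffled the spreads between genes. Its recovery shares therefore do not carry over to these arrays, where an average difference of -0.44 (Acta2) was also called. Alternatives covered the filter, normalization, probe set summary, fold threshold and eBayes settings. The precision is limited by 1 array per group, by the wide 3' to 5' gaps of 1 array and by values near the filter.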

Additional observations from a re-analysis of the deposited data

Results flagged for a closer look

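Ifngr2 differed by -1.51 (log2) between knockout and wild type after ET-1 and by 1.69 untreated, and Taf15 by 2.89 after ET-1 and -1.16 untreated. Both were picked out because the genotype difference turned its sign between the treatment states, with 1 array per group. The difference between the states was not tested. The second brightest probe set of Ifngr2 gave 0.037 after ET-1 and 0.107 untreated. Both probe sets of Taf15 were higher in the knockout after ET-1, with a mean of 1.74. The second Taf15 probe set, below the level filter, gave 0.59 after ET-1 and 0.42 untreated. The turn of sign was therefore seen only in the brightest probe set of each gene.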

How the results depend on the processing

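The counts at 2-fold after ET-1 (689 higher, 803 lower) stayed within 1.5 times under no level filter, a filter 1 log2 unit higher, array medians subtracted, quantile normalization, the mean of all probe sets and the median of those past the filter, at 555 to 717 higher and 607 to 855 lower. So did the limma counts under every setting run, at 718 to 1179 higher and 766 to 1132 lower. At 1.5-fold there were 1467 higher and 1634 lower, and at 4-fold 219 and 257. The second brightest probe set, present for 5239 genes, gave 361 and 341 after ET-1 and 259 and 242 untreated, a smaller count because fewer genes enter. Untreated wild type in place of ET-1-treated wild type, an alternative chosen after seeing the data, gave 661 and 606. Among named genes 2-fold or more apart, the second brightest probe set turned the sign of Hoxc5 (0.094), Ifngr2 (0.037) and Mycn (-0.075), and the cause was not tested. The mean of all probe sets took 31 of 234 named genes below 2-fold. No paired analysis was possible because each group has 1 array and the labels carry no replicate numbers.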
